A study of Mus musculus with 8 samples.

Results

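Dbp, Tef, Hlf, Nfil3, Bhlhe40, Bhlhe41, Ciart, Wee1 and Usp2, 9 output genes of the circadian clock, were read in mouse hearts with and without overexpression of the prokineticin receptor PKR2. They were taken by gene name from the array's annotation, where older names of Bhlhe40, Bhlhe41 and Ciart also counted. The naming rule used no measured value, but the genes were chosen with earlier results of these data known. They are 9 of 21213 named genes on the array and are carried by 15 probes, of which 13 could be tested. The 8 hearts came from male mice aged 12 weeks. There were 4 wild-type (WT) mice and 4 mice labelled as overexpressing PKR2, a G protein-coupled receptor. The labels give neither the promoter that drives PKR2, nor the strain or the transgenic line, nor the time of day at which hearts were collected. The design addresses how the heart's transcripts differ when PKR2 is overexpressed.

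The clock of mammalian cells is a feedback loop in which ARNTL (also called BMAL1) and CLOCK bind E-boxes and switch on Per, Cry and Nr1d genes, whose products then repress them. Its output passes to other genes through the PAR bZIP activators DBP, TEF and HLF and the repressor NFIL3, which bind the same D-box element, and through the E-box repressors BHLHE40, BHLHE41 and CIART. In the heart, clock output is known for its part in fuel use and in the daily course of ion channel expression.

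Each heart was hybridised to its own 1-colour Agilent array, and a level is given here as the log2 of the scanner's processed signal minus that array's 75th percentile, so that 0 is the percentile itself. Levels of different probes are not comparable with each other. The 75th percentile lay between 40.9 and 770 intensity units, and 48.3% to 67.1% of spots were well above background. All 10 cardiomyocyte markers were well above background in all 8 hearts. The Prokr2 probe was well above background in 0 of 8 hearts, with levels of -6.72 to -5.25 in WT and -7.35 to -5.80 in PKR2 hearts, so it does not check the labels. Slide numbers were read from a code in each heart's label, which does not itself name a slide, and follow the order of the codes. The codes read as slides 1 to 5 are consecutive, and that of slide 6 does not follow on from them. WT 3 and PKR2 3 shared slide 5, WT 4 and PKR2 4 shared slide 6, and the other hearts were each the only one of the series on their slide. The 2 hearts of slide 6 stood apart from the other 6 in most clock output genes, so differences are given with and without them. In whole-heart RNA, fewer cells of a type and less RNA per cell cannot be told apart.

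Promoter windows of 250 bases before the annotated start, from RefSeq on GRCm38.p6, were found for 7 of the 9 genes, with 8 windows because Tef has a pair of starts. The E-box searched was CACGTG, which reads the same on both strands and is held by 6.02% of 32851 such windows. Of the clock output genes, Ciart, Bhlhe41 and both Tef windows hold it, while Dbp, Hlf, Nfil3 and Usp2 have no match in these windows. Ciart is shown because it varied most between hearts by SD and because its window holds 3 E-boxes, a number reached by 20 of 32851 windows (0.061%). They lie 116, 58 and 44 bases before the start. Sequences run 5′ to 3′ on the gene's strand with the E-box in capitals.
Ciart (chr3:95882229-95882478, minus strand): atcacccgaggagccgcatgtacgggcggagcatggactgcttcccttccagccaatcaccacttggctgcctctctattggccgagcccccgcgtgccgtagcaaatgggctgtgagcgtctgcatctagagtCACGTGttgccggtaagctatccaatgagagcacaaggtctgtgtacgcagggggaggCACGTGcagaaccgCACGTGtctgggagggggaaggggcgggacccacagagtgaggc
Bhlhe41 (chr6:145865421-145865670, minus strand, E-box 153 bases before the start): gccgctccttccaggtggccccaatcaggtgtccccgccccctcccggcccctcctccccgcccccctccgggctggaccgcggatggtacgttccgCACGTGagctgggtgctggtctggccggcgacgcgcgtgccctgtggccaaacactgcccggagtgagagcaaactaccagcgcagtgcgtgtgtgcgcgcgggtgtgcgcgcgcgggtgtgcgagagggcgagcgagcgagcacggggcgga
Tef, first start (chr15:81802423-81802672, plus strand, E-box 127 bases before the start): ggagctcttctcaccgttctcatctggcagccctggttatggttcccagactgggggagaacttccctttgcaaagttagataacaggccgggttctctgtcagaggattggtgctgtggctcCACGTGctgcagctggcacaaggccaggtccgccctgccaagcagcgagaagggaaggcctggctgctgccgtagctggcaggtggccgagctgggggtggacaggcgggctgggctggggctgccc
Tef, second start (chr15:81811164-81811413, plus strand, E-box 138 bases before the start): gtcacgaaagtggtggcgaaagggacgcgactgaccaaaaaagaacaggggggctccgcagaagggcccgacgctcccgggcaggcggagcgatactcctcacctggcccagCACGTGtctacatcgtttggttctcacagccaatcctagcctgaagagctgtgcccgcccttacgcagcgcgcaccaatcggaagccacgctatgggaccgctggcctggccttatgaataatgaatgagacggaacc

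Nfil3 is shown beside them because its representative probe did not share their order of hearts. Its window holds 1 ROR element, the motif TAGGTCA bound by ROR and REV-ERB receptors, in capitals on the opposite strand as TGACCTA, 12 bases before the start. That motif is held by 2.23% of the windows on either strand. The variant TGGGTCA (3.24% of windows), the D-box TTACGTAA (0.113%) and its variant TTATGTAA (0.819%) were searched on both strands and had no match in any window of the 7 genes.
Nfil3 (chr13:52981040-52981289, minus strand): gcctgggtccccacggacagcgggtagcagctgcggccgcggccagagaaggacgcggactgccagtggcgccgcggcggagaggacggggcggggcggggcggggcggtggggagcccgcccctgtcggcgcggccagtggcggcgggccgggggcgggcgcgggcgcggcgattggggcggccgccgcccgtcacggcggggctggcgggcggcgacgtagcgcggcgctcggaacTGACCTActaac

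No clock output gene passed the test of PKR2 against WT hearts. Relative to WT, 5 of the 9 had higher and 4 had lower mean levels in PKR2 hearts, beside 50.4% of all 15667 features that were higher and 49.6% that were lower. Under median scaling, 36.4% of all features were higher. Ciart apart, each of the 9 differences changed sign under at least 1 of the 26 other settings tried. limma with Benjamini-Hochberg adjustment over all features called 0 of the 9, beside 0% of all features, and the adjusted p was 0.9997 for each of the 9. At an unadjusted p under 0.05 it named 0 of the 9, beside 2.42% of all features (379 features). Levels of the groups overlapped for all 9, whereas 1.61% of all features had groups without overlap. The median difference, PKR2 minus WT, was 0.016 for the 9 genes and 0.0015 over all features. Wee1 passed the filter on dim probes through the PKR2 hearts alone, so its entry into these counts depended on that group. The p-values rest on the spread between these 8 hearts, each on its own array, so mouse and array are not separated. The exact permutation test of 4 against 4 cannot go below 0.0286.

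**Figure D1:**
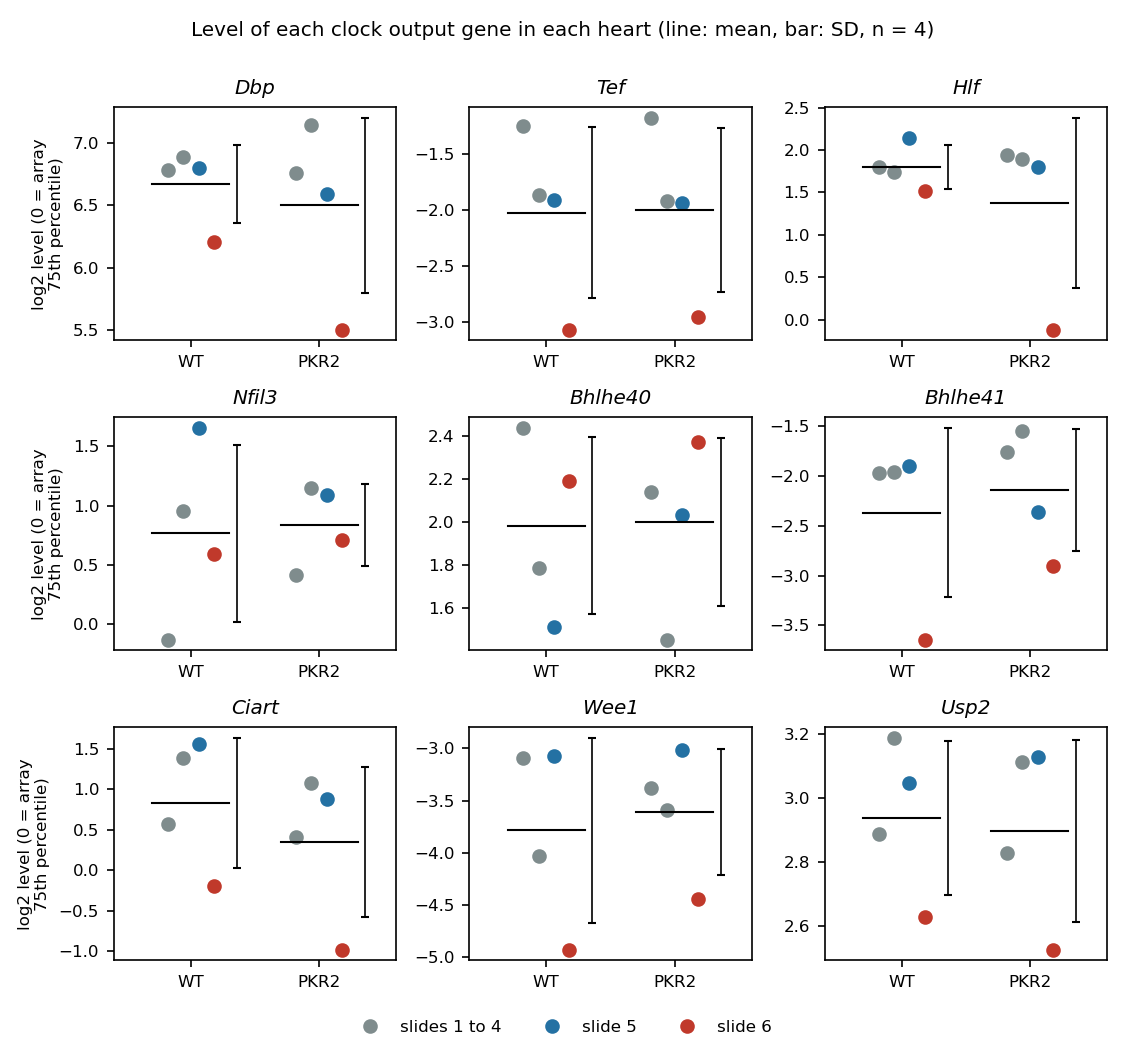
Level of each clock output gene in each heart (log2 of the processed signal minus the array's 75th percentile), by group, with a line at the mean and a bar for the SD of each group of 4, and with colours for slide 5, slide 6 and the other slides. WT and PKR2 hearts overlap in all 9 genes, and the 2 hearts of slide 6 are at the bottom in 7 of them.

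Of the PAR bZIP activators, Dbp, the D-box activator known for a large daily swing in many tissues, was read by a probe at chr7:45577937-45577996 (mm8). Dbp levels were 6.78, 6.89, 6.79 and 6.21 in WT hearts 1 to 4 and 6.76, 7.14, 6.59 and 5.50 in PKR2 hearts 1 to 4. Heart 4 was the low one in each group, and the PKR2 range enclosed the WT range. The Dbp difference was -0.17 (SE 0.33, 95% interval -0.91 to 0.57, exact permutation p = 0.743). Without PKR2 4 it was 0.16 and without both slide 6 hearts 0.0087, so its sign rests on those hearts. Under normexp background correction it was 0.34, where the median over features brighter than the median feature was 0.23. With the adipocyte score or array weights in the fit it was -0.69 or -0.58.

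Hlf, the hepatic leukaemia factor, which the heart also transcribes, had levels of 1.80, 1.74, 2.14 and 1.52 in WT hearts 1 to 4 and 1.94, 1.90, 1.80 and -0.12 in PKR2 hearts 1 to 4 (probe at chr11:90154754-90154813, mm8). A single heart, PKR2 4, was far below all others, and the remaining 7 overlapped. The Hlf difference was -0.42 (SE 0.43, 95% interval -1.38 to 0.54, exact permutation p = 0.714). Without PKR2 4 it was 0.081, and without both hearts of slide 6 it was -0.013. It was larger in size, at -1.11 with the adipocyte score added, -0.99 with slides blocked, -0.90 with array weights and -0.68 with scan ranges blocked, and passed the test under none of these.

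Tef, the thyrotroph embryonic factor, is read by 4 probes, and its representative probe lies at chr15:81651043-81651102 (mm8). Its levels were -1.25, -1.87, -1.91 and -3.07 in WT hearts 1 to 4 and -1.18, -1.92, -1.94 and -2.95 in PKR2 hearts 1 to 4. Each genotype held 1 high heart, 2 in the middle and 1 low heart. The Tef difference was 0.026 (SE 0.44, 95% interval -0.95 to 1.003, exact permutation p = 0.857), and without slide 6 it was -0.0032. A brighter Tef probe at chr15:81653753-81653812 was left out of the fit because its spot carried an outlier flag in WT 1. With that spot kept, it read 2.86 ± 0.26 in WT hearts against 2.67 ± 0.57 with PKR2 (SD, n = 4 each, exact permutation p = 0.657), and slide 6 again held its 2 lowest hearts. The remaining Tef probes differed by 0.27 and -0.60 in opposite directions (exact permutation p = 0.629 and 0.257, n = 4 each), the second of them at chr15:81643379-81643438. At that second probe PKR2 1 (-4.22) was the lowest heart, followed by PKR2 4 (-4.20) and WT 4 (-3.87), an order unlike that of the representative probe.

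Nfil3, also called E4BP4, is the D-box repressor that opposes the PAR bZIP activators. At the representative probe (chr13:52979648-52979707, mm8) its levels were -0.14, 0.95, 1.66 and 0.59 in WT hearts 1 to 4 and 0.41, 1.15, 1.09 and 0.71 in PKR2 hearts 1 to 4. The lowest hearts were number 1 of each group, not those of slide 6, and the PKR2 range lay inside the WT range. The Nfil3 difference was 0.072 (SE 0.35, 95% interval -0.71 to 0.86, exact permutation p = 0.857), and without slide 6 it was 0.056. A second Nfil3 probe at chr13:52979932-52979991 gave -0.75, -0.71, -0.66 and -0.82 in WT and -0.49, -0.32, -0.36 and -0.81 in PKR2 hearts. At that probe 3 of 4 PKR2 hearts lay above all WT hearts, and PKR2 4 was below 3 of them, so that here the slide 6 hearts were the 2 lowest. The difference at that probe was 0.24 (exact permutation p = 0.114), and the probes of the gene disagreed in how much the hearts spread. The mean deviation of Dbp, Tef and Hlf minus that of Nfil3 was 0.13 ± 0.84 in WT and -0.13 ± 0.82 in PKR2 hearts (SD, n = 4 each), ranges that overlapped.

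**Figure D2:**
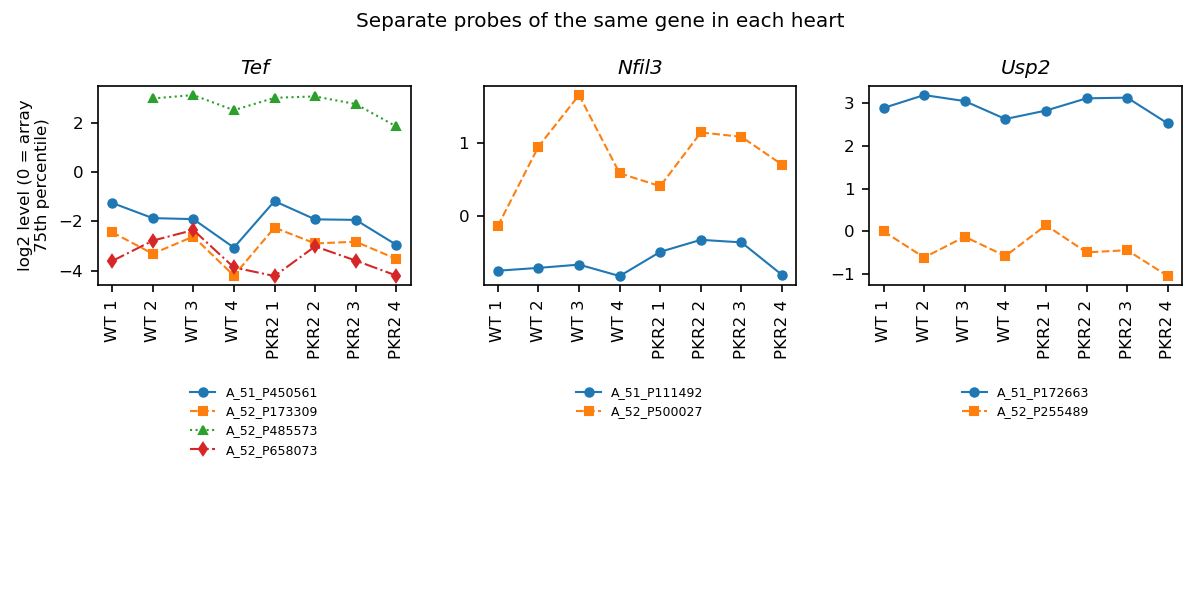
Level of each probe of Tef, Nfil3 and Usp2 in each heart (log2 of the processed signal minus the array's 75th percentile), 1 line per probe, where lines only join the points of a probe. Both Nfil3 probes are shown because they differ in which hearts are lowest, and the top Tef probe has no point in WT 1, where its spot carried an outlier flag.

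Of the E-box repressors, Bhlhe40, or DEC1, which competes with ARNTL and CLOCK for E-boxes, was read at chr6:108632092-108632151 (mm8). Bhlhe40 levels were 2.44, 1.79, 1.51 and 2.19 in WT hearts 1 to 4 and 2.14, 1.45, 2.03 and 2.37 in PKR2 hearts 1 to 4. The highest values were those of WT 1 and PKR2 4, and the groups overlapped over nearly all of their range. The Bhlhe40 difference was 0.016 (SE 0.26, 95% interval -0.56 to 0.59, exact permutation p = 1), and without slide 6 it was -0.039.

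Bhlhe41, or DEC2, a close relative of Bhlhe40 with the same kind of DNA binding, was read by a probe at chr6:145819914-145819973 (mm8). Bhlhe41 levels were -1.97, -1.96, -1.90 and -3.64 in WT hearts 1 to 4 and -1.76, -1.55, -2.36 and -2.90 in PKR2 hearts 1 to 4. WT hearts 1 to 3 lay close together with WT 4 far below them, and PKR2 4 was the second lowest of all. The Bhlhe41 difference was 0.22 (SE 0.44, 95% interval -0.75 to 1.20, exact permutation p = 0.686). Without WT 4 it was -0.20 and without both slide 6 hearts 0.050. A second Bhlhe41 probe at chr6:145821325-145821384 was not well above background in any heart.

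Ciart, or CHRONO, which represses ARNTL and CLOCK at E-boxes, was read at chr3:95963915-95963974 (mm8). Ciart levels were 0.57, 1.39, 1.56 and -0.19 in WT hearts 1 to 4 and 0.41, 1.08, 0.88 and -0.98 in PKR2 hearts 1 to 4. Heart 4 was the lowest and heart 1 the next lowest in each group, and 3 of the PKR2 hearts lay within the WT range. The Ciart difference was -0.49 (SE 0.50, 95% interval -1.62 to 0.65, exact permutation p = 0.457), the largest in size of the 9. Without PKR2 4 it was -0.044, without both hearts of slide 6 it was -0.39, with the adipocyte score or array weights in the fit it was -1.09 each, and it was negative under all 26 settings tried, called under none.

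Of the targets, Wee1, the kinase that holds CDK1 inactive before mitosis, was dim. Its probe at chr7:109930824-109930883 (mm8) was well above background in 2 WT and 3 PKR2 hearts. Wee1 levels were -3.09, -4.03, -3.08 and -4.93 in WT hearts 1 to 4 and -3.38, -3.59, -3.02 and -4.44 in PKR2 hearts 1 to 4. The slide 6 hearts were again lowest in each group, followed by WT 2. The Wee1 difference was 0.17 (SE 0.44, 95% interval -0.82 to 1.17, exact permutation p = 0.743), and without slide 6 it was 0.072.

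Usp2, a deubiquitinase whose transcript cycles in many tissues, was the steadiest of the 9 by representative probe. At chr9:43843736-43843795 (mm8) its levels were 2.89, 3.19, 3.05 and 2.63 in WT hearts 1 to 4 and 2.83, 3.11, 3.13 and 2.53 in PKR2 hearts 1 to 4. The groups overlapped, and heart 4 was the lowest of each. The Usp2 difference was -0.040 (SE 0.19, 95% interval -0.47 to 0.39, exact permutation p = 0.8286), the narrowest interval among the 9. A second Usp2 probe at chr9:43845948-43846007 differed by -0.13 (exact permutation p = 0.657, n = 4 each), with PKR2 4 again the lowest heart and WT 2 (-0.61) below WT 4 (-0.58). Without slide 6 the difference at the first probe was -0.019.

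**Figure D3:**
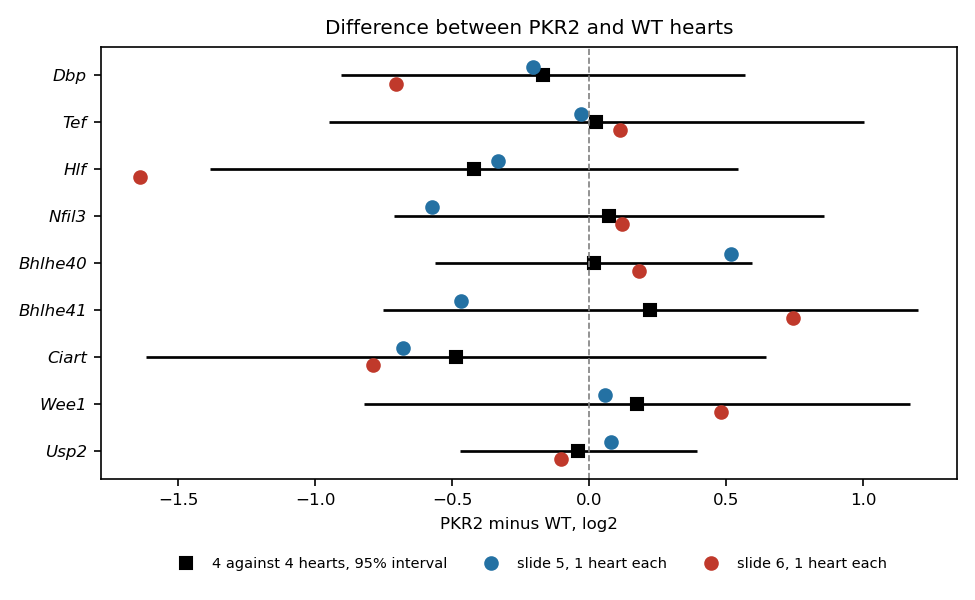
Difference PKR2 minus WT of each clock output gene on the log2 scale: squares with limma's 95% interval for 4 hearts against 4, and circles for the single pair of hearts on slide 5 and on slide 6. Every interval covers 0, the widest, that of Ciart, runs from -1.62 to 0.65, and both slide pairs are below 0 for Dbp, Hlf and Ciart.

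The intervals bound what 4 hearts against 4 could show. For Usp2 the interval ended at -0.47 and 0.39, while for Ciart it reached -1.62. The spread behind them was wide for most of the genes. The SD over the 8 hearts had a median of 0.69 for the 9 genes and 0.30 for all features. By this SD, Ciart stood at the 97.1 percentile of all features, Hlf at 94.8, Wee1 at 94.7, Bhlhe41 at 94.3 and Tef at 94.1. Nfil3 at 87.2 and Dbp at 84.7 followed, Bhlhe40 stood at 66.0 and Usp2 at 34.4. Dim probes spread more, so the SD was also ranked among features within 0.5 log2 of the gene's own mean level. There Ciart stood at 98.9, Hlf at 98.4, Dbp at 93.9, Nfil3 at 93.7, Tef at 93.6, Bhlhe41 at 92.8, Wee1 at 83.5, Bhlhe40 at 80.2 and Usp2 at 48.9. The highest heart stood 5.81-fold above the lowest for Ciart, 4.78-fold for Hlf, 3.11-fold for Dbp and 1.58-fold for Usp2. These SDs and folds are those of the representative probes. For Nfil3 the fold was 3.47 at that probe and 1.41 at the second probe, and for Usp2 it was 2.28 at the second probe.

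**Figure D4:**
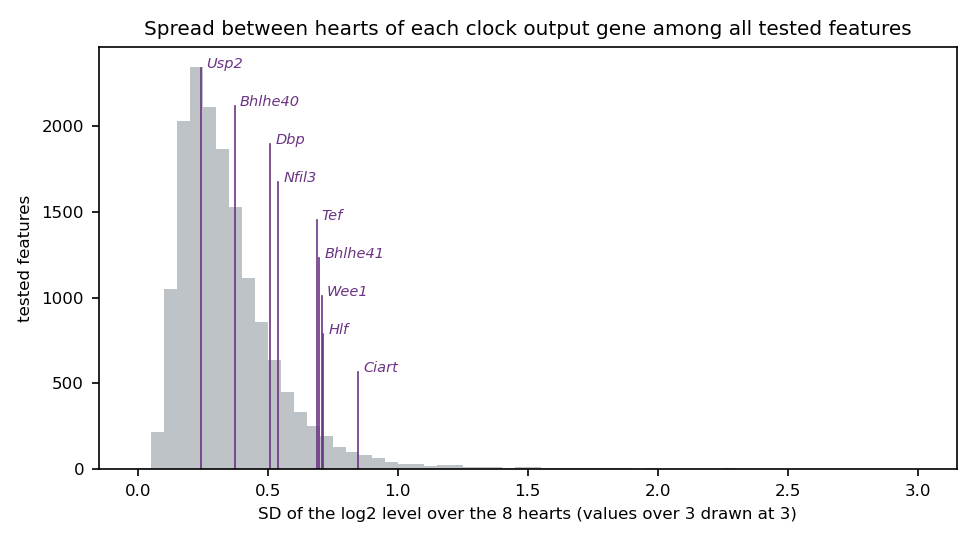
SD over the 8 hearts (log2 scale) of all 15667 features and of the 9 clock output genes, each by its representative probe. The median SD is 0.69 for the 9 genes and 0.30 for all features, and Ciart has the largest of the 9.

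For most of the genes the low hearts were those of a shared slide. WT 4 and PKR2 4, the pair of slide 6, were the 2 lowest of the 8 hearts for 7 of the 9 genes, Dbp, Tef, Hlf, Bhlhe41, Ciart, Wee1 and Usp2. Among all features, 4.69% had this order. The count is over representative probes: the order also held at the second Nfil3 probe, and did not hold at the Tef probe at chr15:81643379-81643438 or at the second Usp2 probe. The pair of slide 5 was lowest for 0 of the 9 genes, beside 3.87% of all features, and highest for Wee1 alone, beside 1.73%. Slide 6 was singled out after its values were seen, so this is a description without a test. It holds 1 heart of each genotype, and within it PKR2 minus WT was -0.71 for Dbp, -1.64 for Hlf, -0.79 for Ciart, 0.74 for Bhlhe41 and 0.11 for Tef. Within slide 5 the same differences were -0.21, -0.33, -0.68, -0.47 and -0.031, each from a single pair of hearts. The lower Ciart in PKR2 was thus present on both slides, while Bhlhe41 and Tef differed in sign between them.

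**Figure D5:**
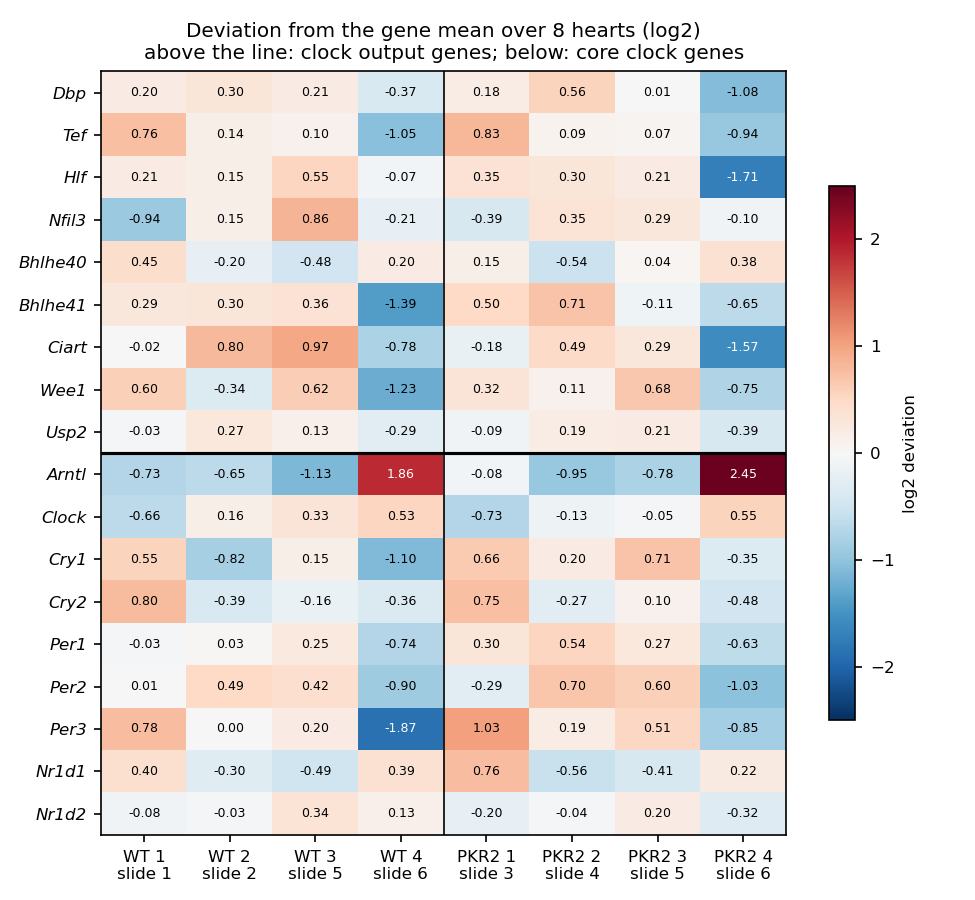
Deviation of each heart from the gene's mean over the 8 hearts (log2 scale) for the clock output genes and core clock genes. The slide 6 hearts are lowest for 7 of the 9 output genes and for Per1, Per2 and Per3, and highest for Arntl and Clock.

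Other features of slide 6 were set beside this order. Both of its hearts were scanned at a single range with 75th percentiles of 116 and 87.5, as was WT 2 with 40.9, while the other 5 hearts had an extended range and 318 to 770. WT 2 was the lowest heart outside slide 6 for Hlf (1.74) and Wee1 (-4.03), and was not for Dbp (6.89), Ciart (1.39) or Bhlhe41 (-1.96). The order held for 7 of the 9 genes under quantile normalization and in the authors' values, for 5 under median scaling (not Hlf or Usp2) and for 2, Dbp and Ciart, under normexp background correction. Under normexp, which added an offset of 50 to the signal of every array, the share among all features was 1.21%. The mean deviation of the 10 cardiomyocyte markers was -0.19 in WT 4 and -0.12 in PKR2 4, the 2 lowest, and -0.060 to 0.29 in the other hearts. Smooth muscle markers (-0.35 and -0.21) and macrophage markers (-0.14 and -0.27) were also lowest in WT 4 and PKR2 4. Endothelial markers went the other way and were highest in these hearts (0.26 and 0.15). Fibroblast, lymphocyte, mesothelial, Schwann and erythroid markers had neither order. For the adipocyte markers, 9 of 10 tested, the mean deviation was 1.15 for WT 4 and 0.32 for PKR2 4. The lowest adipocyte values were those of PKR2 1 (-2.30) and PKR2 2 (-2.03), both outside slide 6. The part of scan range and of cell makeup in the order was not tested.

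The core clock genes gave a like picture. Of the 16 listed, 15 could be tested (all but Npas2), 8 were higher and 7 lower in PKR2 hearts, the median was 0.0060, and limma called 0. Arntl, the E-box activator that pairs with CLOCK, had levels of -3.46, -3.38, -3.86 and -0.87 in WT hearts 1 to 4 and -2.81, -3.68, -3.51 and -0.28 in PKR2 hearts 1 to 4. The slide 6 hearts stood far above the other 6, opposite to Dbp and Ciart, and the groups overlapped (difference 0.32, SE 0.84, limma adjusted p = 0.9997). The Arntl probe was dim, well above background in 7 of 8 hearts. Under normexp the slide 6 hearts were still highest, but the gap was small. There Arntl deviated from its mean by 0.92 in WT 4 and 1.31 in PKR2 4, beside 0.71 in WT 1 and 0.65 in WT 2. Clock, its partner, was also highest on slide 6, at 1.73 in WT 4 and 1.75 in PKR2 4 beside 0.48 to 1.54 in the other hearts.

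The Per genes, E-box targets whose products repress ARNTL and CLOCK, shared the order of the output genes. Per1 was 1.52 and 1.63 on slide 6 and 2.23 to 2.80 elsewhere. Per2 was -0.98 and -1.11 there and -0.37 to 0.62 elsewhere, and Per3 was -4.40 and -3.37 there and -2.52 to -1.49 elsewhere. Slide 6 hearts were thus the 2 lowest for 3 and the 2 highest for 2 of the 15 core clock genes, beside 4.69% and 4.42% of all features. Under normexp, Per1 and Per2 kept this order and Per3 did not. Its deviations there were -0.27 in WT 4 and -0.013 in PKR2 4, beside -0.52 in WT 3. Nr1d1, which encodes REV-ERB alpha and represses Arntl and Nfil3, did not share this order. Its levels were 0.88, 0.18, -0.0093 and 0.87 in WT hearts 1 to 4 and 1.25, -0.078, 0.076 and 0.70 in PKR2 hearts 1 to 4. Hearts 1 and 4 of each group were high and hearts 2 and 3 low. Nr1d2 differed by -0.18 (SE 0.17), Cry1 by 0.61 (SE 0.39) and Cry2 by 0.055 (SE 0.33).

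Relations among the output genes were examined in the 6 hearts outside slide 6, because slide 6 formed a cluster of its own, a choice made after its values were seen. Over all 8 hearts, 11 of 45 pairs had an adjusted exact permutation p under 0.05 by r (the smallest was 0.0167) and 0 by rho, and all 11 kept their sign over the 6 hearts. Over the 6 hearts, 0 of the 45 pairs (the 9 genes and Arntl) passed after Benjamini-Hochberg adjustment of the exact permutation p, the smallest being 0.42, and 4 had an unadjusted p under 0.05. The smallest p was that of Nfil3 against Bhlhe40, with r = -0.89 (exact permutation p = 0.0236, adjusted 0.42) and rho = -0.89 (exact permutation p = 0.0333, adjusted 0.669). The r of Tef with Usp2 was larger in size, at -0.94 (exact permutation p = 0.0361, adjusted 0.42), and was 0.56 over all 8 hearts. Tef also changed sign with Ciart (0.59 over 8 hearts, -0.82 over 6) and with Arntl (-0.79 and 0.73). Each r used the representative probe of a gene, and r was not computed for other probes. Among the 6 hearts, WT 1 (-1.25) and PKR2 1 (-1.18) were the highest at the Tef probe used. They were the lowest at the Usp2 probe used (2.89 and 2.83). At the second Usp2 probe they were the highest (0.0029 and 0.15), so the sign of this r need not hold at other probes. Over these 6 hearts r was 0.76 for Ciart with Usp2, -0.73 for Ciart with Arntl and 0.043 for Dbp with Hlf, none of them past the adjusted threshold.

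Genes most like each output gene, read at its representative probe, were ranked among 11805 genes by Pearson r over the 8 hearts, as a description. The highest with Dbp were Golga2 (0.96), Phldb1 (0.95), Stn1 (0.94), Klf9 (0.93) and Phkg1 (0.92), and the lowest were Adam19 (-0.98), Unc119b (-0.96), Medag (-0.95), Col6a3 (-0.94) and Tor4a (-0.91). Over the 6 hearts outside slide 6, r with Dbp was 0.94 for Golga2 and 0.93 for Klf9 but 0.44 for Phkg1, and it was -0.94 for Adam19 but -0.55 for Unc119b and -0.56 for Col6a3. Usp2 was most like Per2 (0.98, and 0.93 over the 6 hearts). Ciart was most like Phkg1 (0.98) and Plet1 (0.96), Nfil3 most like Scrn1 (0.99) and Pcnx (0.99), and Bhlhe40 most like Cdr2l (0.97) and Morc4 (0.96). Bhlhe41 was most like Kcnh2 and Nfix (0.97 each), Tef most like B3gnt8 (0.98) and Igkv4-58 (0.97), and Wee1 most like Hdac4 (0.94) and Lefty1 (0.93). Hlf was most like Tbc1d10b and Msl1 (0.97 each), but these were 0.37 and 0.27 over the 6 hearts. Of the hearts left out, only PKR2 4 was far below the others in Hlf (-0.12, beside 1.52 in WT 4).

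Genes downstream of the clock output factors, or known to follow the clock in heart or liver, gave no call either. Of 17 listed and tested, 8 were higher and 9 lower in PKR2 hearts, the median difference was -0.035, and limma called 0. Por, the electron donor of cytochrome P450 enzymes, had the smallest unadjusted p, with a difference of -0.48 (SE 0.20, limma adjusted p = 0.9997). Gsk3b, the kinase that phosphorylates clock proteins, differed by 0.42 (SE 0.26), and Kcnip2, a potassium channel subunit under clock control in heart, by 0.28 (SE 0.21). Around Wee1, 8 of 11 G2 to M regulators could be tested, with 5 higher, 3 lower and a median of 0.034. Inputs that act on Per1 and other clock genes gave like counts: glucocorticoid-responsive genes 3 higher and 4 lower, immediate early genes 5 and 7, and hypoxia-responsive genes 5 and 5. Of these lists limma called 0 genes.

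Among markers of other cell types, the adipocyte list had the largest median difference, with 9 of 9 tested genes lower in PKR2 hearts, a median of -2.17 and 8 at an unadjusted p under 0.05 (0 after adjustment). Medians of the other lists were 0.077 for cardiomyocyte, -0.090 for endothelial, -0.026 for fibroblast, -0.040 for smooth muscle, -0.025 for macrophage, 0.20 for lymphocyte, -0.29 for mesothelial, -0.36 for Schwann and 0.030 for erythroid markers. When the adipocyte score entered the fit, limma called 0 of the 9 output genes. That score was itself lower on average in PKR2 hearts (-2.30, -2.03, 0.47 and 0.32) than in WT hearts (1.24, 1.21, -0.063 and 1.15). The fit therefore separates score and genotype poorly.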

How the data were processed

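RNA of 8 mouse hearts (4 WT, 4 PKR2) was measured on 1-colour Agilent arrays. Per the file headers, scans went through Agilent Feature Extraction 9.5.1.1, and probes are placed on mm8. The deposited scanner values are spot intensity on a linear scale, background-subtracted but not normalized between arrays. The authors also deposited normalized intensity, taken here as an alternative; how it was normalized is not given in the sources used here.

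Levels are log2 of the processed signal less each array's 75th percentile, averaged over a probe's spots. Controls and outlier-flagged spots did not enter. Testing needed a probe well above background on 3 or more of the 4 arrays in either group (22717 of 41174 probes). A gene took its brightest tested probe, which gave 15667 features. Probes were named by accession (24375), by symbol or synonym (8727) through the gene list of RefSeq GRCm38.p6, or kept the file's name (1599), and 6473 had none. PKR2 was set against WT with limma 3.58.1 under R 4.3.3 (with the package data.table, version 1.17.8), p-values were adjusted over all features at a threshold of 0.05, and single values were also tested with a two-sided exact permutation test over 70 relabelings. The fit was tested on simulated data. The genes and lists were chosen with earlier results of these data known. Named are the 9 genes with every probe, the main core clock genes, the genes of smallest p in the clock target list, and the genes of highest or lowest r, of which 1 is not reported here. Alternatives covered background correction, scaling, filters, probe choice, slide, position, scan range, adipocyte score, variance model, array weights and each array left out. Keeping outlier-flagged spots, leaving out slide 6 and slide 6 as a covariate were chosen after seeing the data. The number of arrays limits precision.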

Additional observations from a re-analysis of the deposited data

Results flagged for a closer look

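In 26 groups of 4 hearts (13 tested probes in each genotype), 3 held a heart far from the other 3 by Dixon's ratio of its gap to the group's range. Chance singles out about 1 in 20 groups of independent normal values, but these groups share arrays and some share a gene. The share over all probes was not counted, so the number was not tested against chance. For Dbp in WT hearts the ratio was 0.846, with WT 4 at 6.21 and the nearest heart at 6.78. For Hlf in PKR2 hearts it was 0.933, with PKR2 4 at -0.12 and the nearest at 1.80. For Bhlhe41 in WT hearts it was 0.960, with WT 4 at -3.64 and the nearest at -1.97. All 3 were low hearts of slide 6.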

How the results depend on the processing

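Under all 26 settings limma called 0 of the clock output genes it could test, with a smallest adjusted p of 0.502, and the signs of small differences changed often. Over all features the count of calls was 0, but 1 under median scaling, the filter on all 8 arrays, slide as a random block, position 4 alone and trended robust variance, and 0 to 1 when single hearts were left out. The cause was not tested. Normexp gave a target list median of 0.24 and differences of 0.34 for Dbp, 0.32 for Usp2, -0.44 for Bhlhe41, -0.29 for Tef and -0.71 for Wee1. Under it the median difference over features brighter than the median feature was 0.23, beside -0.024 in the main setting. The adipocyte covariate, itself lower on average in PKR2 hearts, gave medians of -0.45 (output genes) and -0.14 (core clock). With it, Bhlhe41 was -0.45, Tef -0.51, Nfil3 -0.094 and Wee1 -0.13. Array weights gave Bhlhe41 -0.32, Tef -0.32, Nfil3 -0.20 and Wee1 -0.014. Position 4 alone gave Bhlhe40 -0.44, Bhlhe41 -0.18, Tef -0.75, Wee1 -0.52 and Usp2 0.011. The authors' values gave Bhlhe40 -0.030, Tef -0.17, Wee1 -0.059 and Usp2 0.0057. Scan range as a block gave Bhlhe41 -0.0093, Tef -0.24 and Wee1 -0.14. Quantile normalization gave Tef -0.017 and Usp2 3.58e-05, and median scaling Bhlhe40 -0.046 and Tef -0.037. Tef was -0.10 as a mean of probes and -0.19 with outlier-flagged spots kept. Nfil3 was -0.23 with slide as a fixed block and -0.030 as a random block. Without slide 6, Bhlhe40 was -0.039, Dbp 0.0087 and Tef -0.0032. When each heart was left out in turn, differences ran from -0.14 to 0.20 for Bhlhe40, -0.20 to 0.48 for Bhlhe41, -0.38 to 0.16 for Dbp, -0.61 to 0.081 for Hlf, -0.23 to 0.37 for Nfil3, -0.32 to 0.34 for Tef, -0.14 to 0.084 for Usp2, -0.21 to 0.45 for Wee1 and -0.83 to -0.044 for Ciart. With slide 6 as a covariate the Ciart difference was -0.49 (SE 0.26, limma adjusted p = 0.9997). No paired analysis was possible because the replicate numbers only follow the order of the samples. The slides shared by a WT and a PKR2 heart entered instead as a fixed block, which rests on 2 such slides and gave Dbp -0.46, Hlf -0.99 and Ciart -0.73, with 0 calls among the output genes. Over all settings the differences spanned -0.69 to 0.34 for Dbp, -1.11 to 0.081 for Hlf, -1.09 to -0.044 for Ciart, -0.44 to 0.36 for Bhlhe40 and -0.23 to 0.97 for Nfil3. Wee1 is limited by signal near background.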
